A study of Mus musculus with 6 samples.

Results

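The genes Gata2, Runx1, Tal1, Lyl1, Lmo2, Erg, Fli1, Mecom, Hlf and Etv6 encode transcription factors, and in the case of Lmo2 a bridging cofactor, that are known to keep hematopoietic stem cells (HSCs) in being. They were chosen for that role, by gene symbol, and are 10 of the 21878 genes listed in each library. All 10 passed the filter on low values (at least 1 FPKM in at least 3 libraries), as did 10449 genes in all.

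The libraries were made by RNA-seq from HSCs sorted from bone marrow (BM) of wild-type (WT) C57BL/6 mice as Lineage- Sca-1+ c-Kit+ Flt3- CD34- cells. The comparison was of 3 libraries from vehicle-treated control mice with 3 from mice given 1 subcutaneous dose of 200 µg/kg insulin-like growth factor 1 (IGF1), taken at day 1. The age of the mice and the number pooled per library are not given in the sources used here, and nothing says that the replicates came from separate mice, so a p-value measures only the spread between these libraries. One label conflicts with the others: the treatment label and the series design name IGF1, whereas the text on extraction speaks of irradiated mice. The groups follow the treatment label.

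HSCs sit at the top of blood formation, and a small set of transcription factors is known to hold their gene program in place. GATA2, RUNX1, TAL1, LYL1, LMO2, ERG and FLI1 are known to bind the same enhancers in blood stem and progenitor cells, including enhancers of their own genes, and are together called the heptad. TAL1 and LYL1 are basic helix-loop-helix proteins that bind DNA paired with an E protein, LMO2 and LDB1 link them to a GATA factor, RUNX1 binds with CBFB, and ERG, FLI1 and ETV6 are ETS-family proteins. MECOM (also called EVI1), a zinc finger protein, and HLF, a leucine zipper protein, are known for their restriction to the most primitive HSCs.

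Levels are in FPKM (fragments per kilobase of gene at a common depth), and a difference is a log2 fold change of IGF1 minus control on the log2(FPKM + 1) scale, which understates the change of genes with low levels. Genes past a 2-fold change in either direction whose Benjamini-Hochberg adjusted p in limma was under 0.05 are referred to as called. Depth was about 11300000 to 16100000 reads per library, and the 10 genes had between 70 and 11333 reads in a library. Control replicate 2 stood apart from the other controls: on the first principal component, with 93.2% of the variance, it lay at -17.8, control replicates 1 and 3 at 64.7 and 64.8, and the IGF1 libraries between -37.8 and -36.6. The differences of the members and the counts of called genes are therefore given with and without it.

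The labelled cell type was checked against marker genes. Cd34 and Flt3, the genes of proteins the sort selected against, were present at 230.2 to 640.0 and 116.6 to 188.0 FPKM. Some genes restricted to HSCs were low, with Fgd5 between 0.277 and 1.68 FPKM, Hoxb5 between 0.279 and 0.691, and Slamf1 between 0.736 and 2.41. Others stood higher, with Procr between 11.5 and 18.7 FPKM and Hlf between 8.88 and 11.8. Ly6a, the gene of the sort protein Sca-1, was at 218.8 to 614.9 FPKM. Mpo, a granule enzyme of myeloid progenitors, stood at 1612.5 to 1704.9 FPKM. Kit, the receptor used in the sort, was at 104.8 and 104.5 FPKM in control replicates 1 and 3, 31.4 in control replicate 2 and 24.2 to 24.6 in the IGF1 libraries.

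The summed level of several marker lists also split control replicate 2 from its group. The 14 neutrophil and monocyte genes summed to 3659.2 and 3714.5 FPKM in control replicates 1 and 3, 6192.1 in control replicate 2 and 6178.9 to 6211.7 in the IGF1 libraries, the members of the list going both ways. Ngp, Camp, S100a8 and S100a9 were called lower, S100a8 for example being at 284.0 and 284.7 FPKM, 163.1, and 55 to 72.8, whereas Prtn3 was at 547.4 and 564.1, 1524.9, and 1693.5 to 1730.5 without being called. Without control replicate 2, 4 of the 12 tested were called in each direction. Of all genes tested, 6.61% were called with all libraries and 32.9% without control replicate 2. The 9 B cell genes summed to 118.7 and 117.6 FPKM, 433.6, and 402.4 to 420.7 in the same order, and the 9 T and NK cell genes in the files to 398.4 and 388.7, 809.7, and 802.4 to 820.2, but Nkg7 alone made 355.7 to 786.5 of the T and NK cell sum, while Cd3e was at 0 to 0.206, Cd3g at 0.315 to 1.16 and Cd8a at 0 to 0.36. Without control replicate 2, 4 of 7 tested B cell genes and 1 of 4 tested T and NK cell genes were called higher. The share of all genes called in either direction was then 32.9%. The 13 genes of endothelial and stromal cells, among them known sites of Erg and Fli1 expression, summed to 192.4 and 190.9 FPKM, 307.4, and 311.6 to 314.0. Of this sum Egfl7 made 158.6 to 295.5, while the defining marker Cdh5 was at 0 to 0.123. Emcn and Tie1 of the same list went the other way from the sum (-0.69 and -0.54). Of its 4 tested genes 2 were above 0 and 2 below. The 10 megakaryocyte genes summed to 152.4 and 152.8 FPKM, 107.3, and 122.3 to 133.3, with 1 called higher, or 3 higher and 1 lower without control replicate 2. The 8 mast cell and basophil genes summed to 79.4 and 78.3 FPKM, 100.1, and 98.8 to 102.8, and the 11 erythroid genes to 68.7 and 71.4, 119.6, and 64.7 to 70.0. The 14 stem cell and sort genes summed to 1471.7 and 1489.6, 1256.8, and 948.2 to 974.0. Of this last sum Cd34 made 640.0 and 633.7 FPKM, 265.2, and 230.2 to 238.0. Cd48 made 272.0 and 283.2, 117.8, and 86.6 to 93.3, whereas Ly6a made 218.8 and 231.1, 614.9, and 374.1 to 387.3. Among its 11 tested genes 3 differences were above 0 and 8 below. None was called with all libraries, and 0 higher and 5 lower without control replicate 2. No gene of these lists that the files hold was at 0 in every library. The part of other cells in the results on the 10 genes was not tested, and in bulk libraries fewer cells of a type and less RNA per cell cannot be told apart.

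The 10 genes covered a wide range of levels. Lmo2 was the most abundant at 297.8 ± 27.3 FPKM (SD, n = 3) in control libraries, above 96.3% of the genes tested, and Mecom the least at 2.76 ± 1.83, above 9.6%. In control libraries the order of mean levels ran Lmo2, Lyl1, Etv6, Fli1, Gata2, Runx1, Erg, Hlf, Tal1 and Mecom. Lmo2 and Lyl1 stood clear of all others in every library, whereas among the control libraries the neighbours Etv6 and Fli1, Fli1 and Gata2, Runx1 and Erg, Erg and Hlf, and Tal1 and Mecom overlapped. In IGF1 libraries the order ran Lmo2, Lyl1, Etv6, Gata2, Runx1, Erg, Fli1, Hlf, Tal1 and Mecom, and no neighbours in it overlapped. Fli1 was in the fourth place in control replicates 1 and 3 and in the seventh in control replicate 2 and every IGF1 library, and its mean control level (34.9 FPKM) was close to that of Gata2 (34.7 FPKM).

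**Figure D1:**
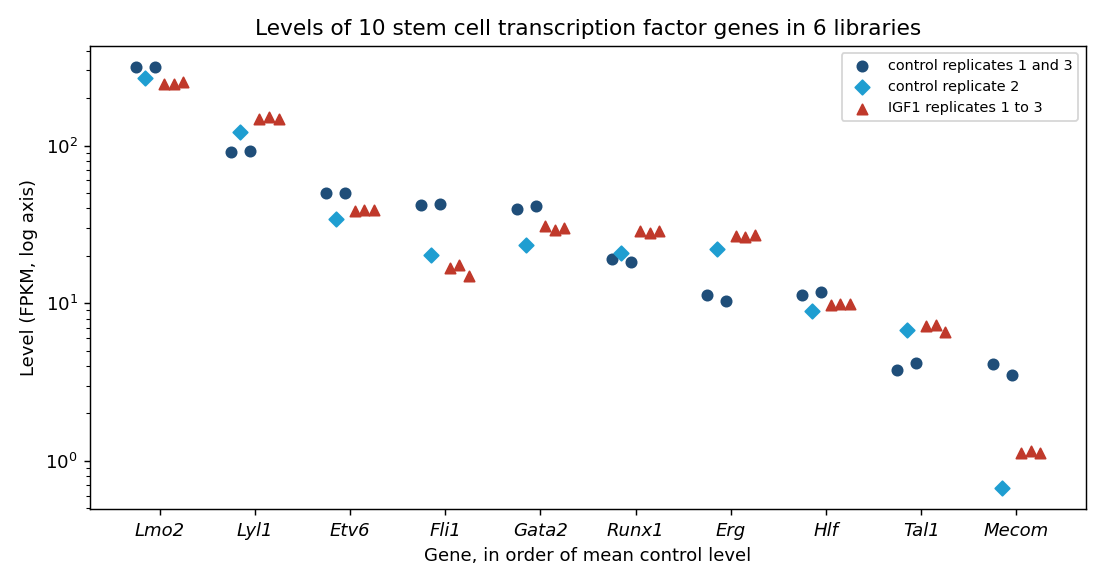
Level of each gene in each library, in FPKM on a log axis, with the genes in order of their mean control level. Circles are control replicates 1 and 3, diamonds control replicate 2 and triangles the IGF1 replicates. For Erg and Fli1 the diamond lies by the triangles (22 against 26.4 to 27.1 FPKM, and 20.1 against 14.8 to 17.6), and for Runx1 by the circles (20.8 against 18.3 and 19.0).

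Runx1 and Lyl1 were the members that passed the adjusted p, and both were higher post IGF1 administration. Their RefSeq promoter windows (GRCm38.p6, the 250 bases before an annotated start, written 5′ to 3′ on the gene's strand) are printed here because the motifs in them are those of the other members. Capitals mark matches, on either strand, to a short motif of each family, and no matches overlapped within a window shown. The ETS motif searched was AGGAA. For GATA factors the letters AGATAA were used. The E-box of basic helix-loop-helix factors was searched as CAGNTG. The RUNX motif was taken as TGNGGT. The first Runx1 window lies at chr16:92826075-92826324 and the second, before the downstream start, at chr16:92697330-92697579, both on the minus strand. The Lyl1 window lies at chr8:84701207-84701456 on the plus strand.
Runx1, upstream start: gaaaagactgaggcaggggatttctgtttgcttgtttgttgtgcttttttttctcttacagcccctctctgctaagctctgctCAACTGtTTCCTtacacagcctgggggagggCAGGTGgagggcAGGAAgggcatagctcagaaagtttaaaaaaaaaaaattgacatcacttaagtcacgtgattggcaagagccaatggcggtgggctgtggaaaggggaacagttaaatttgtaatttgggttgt
Runx1, downstream start: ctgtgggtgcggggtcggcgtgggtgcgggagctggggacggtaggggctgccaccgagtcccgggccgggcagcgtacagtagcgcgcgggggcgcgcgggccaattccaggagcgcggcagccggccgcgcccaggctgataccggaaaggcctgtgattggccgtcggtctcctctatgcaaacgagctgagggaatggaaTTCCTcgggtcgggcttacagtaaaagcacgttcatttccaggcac
Lyl1: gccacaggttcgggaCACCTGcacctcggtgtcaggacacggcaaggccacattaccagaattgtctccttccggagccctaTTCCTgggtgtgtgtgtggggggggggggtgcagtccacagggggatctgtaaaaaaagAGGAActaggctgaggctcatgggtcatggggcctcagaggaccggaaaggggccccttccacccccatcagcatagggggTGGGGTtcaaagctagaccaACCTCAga

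The upstream Runx1 window held 2 ETS and 2 E-box motifs and 2 CpG dinucleotides, and the downstream one held 1 ETS motif and 27 CpG. Lyl1 held 2 ETS, 1 E-box and 2 RUNX motifs. Windows were found for 8 of the 10 genes, 14 windows in all, and Lmo2 and Fli1 had none in the table. An ETS motif was in 8 of the 14 windows and in 60.3% of all 32851 mouse windows, a GATA motif in 2 and in 9.99%, an E-box in 5 and in 44.8%, and a RUNX motif in 3 and in 40.1%. A match is a description of letters, not of a bound site.

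Runx1 (chr16:92601466-92826149, minus strand, GRCm38) encodes the factor that starts the blood program in the embryo and later tunes stem cell output. Its level was 19.0, 20.8 and 18.3 FPKM in control libraries (here and below in the order of replicates 1 to 3) and 28.8, 27.8 and 28.7 FPKM in IGF1 libraries. All IGF1 libraries were above all controls, and control replicate 2 lay with the other controls. Runx1 rose by 0.53 ± 0.10 (SE; 1.45-fold, 95% interval 0.29 to 0.77, adjusted p = 0.0355), and by 0.58 ± 0.04 without control replicate 2. The log2 fold change of Runx1 stayed between 0.46 and 1.03 over the 19 alternatives run, but its adjusted p ranged up to 0.164 and passed in 13 of them.

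Lyl1 (chr8:84701457-84704715, plus strand) encodes the relative of TAL1 that can stand in for it in adult HSCs. It was at 91.6, 122.4 and 92.3 FPKM in control libraries and at 147.9, 151.7 and 147.1 FPKM in IGF1 libraries. The groups did not overlap, and control replicate 2 was intermediate. Lyl1 rose by 0.55 ± 0.14 (1.47-fold, interval 0.20 to 0.90, adjusted p = 0.0477), and by 0.69 ± 0.03 without control replicate 2. With the trends of transcript length and GC content removed from each library, the difference was 0.07 (interval -0.10 to 0.25, adjusted p = 0.412), and the longest Lyl1 transcript is short, at 1800 bases against a median of 3245, and GC-rich, at 62.6% against 49.7%.

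Tal1 (chr4:115056426-115071755, plus strand), the founding helix-loop-helix factor of the heptad, is needed for blood to form at all. Its level was 3.78, 6.78 and 4.15 FPKM in control libraries and 7.17, 7.25 and 6.54 FPKM in IGF1 libraries. Control replicate 2 lay within the IGF1 libraries and the other controls below them, so the groups overlapped. The difference of 0.47 ± 0.21 (interval -0.04 to 0.98) did not pass (adjusted p = 0.111), and was 0.69 ± 0.07 without control replicate 2 (adjusted p = 7.6e-06). The ratio of the Lyl1 level to the Tal1 level was 18.1 to 24.3 in control libraries and 20.6 to 22.5 in IGF1 libraries, and these ranges overlapped.

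Erg and Fli1, closely related ETS factors that are both needed for HSC maintenance and megakaryocyte formation, had the largest differences of the 10 genes on the log2(FPKM + 1) scale with all libraries, in opposite directions. Under 75th percentile scaling Fli1 was at -0.64, nearer to 0 than Lyl1, Runx1 and Tal1, and with length and GC trends removed it was nearer to 0 than Runx1, Tal1 and Lmo2. Erg (chr16:95359169-95586593, minus strand) was at 11.3, 22 and 10.3 FPKM in control libraries and at 26.5, 26.4 and 27.1 FPKM in IGF1 libraries. Fli1 (chr9:32422204-32542861, minus strand) was at 42.0, 20.1 and 42.5 FPKM in control libraries and at 16.8, 17.6 and 14.8 FPKM in IGF1 libraries. The groups did not overlap for either gene, and in both control replicate 2 lay nearer to the IGF1 libraries than to the other controls.

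The difference of Erg was 0.91 ± 0.28 (1.88-fold, interval 0.23 to 1.59) and missed the threshold with an adjusted p of 0.0575. The difference of Fli1 was -0.97 ± 0.30 (interval -1.71 to -0.24), with an adjusted p of 0.0582. Without control replicate 2 both were called, Erg at 1.23 ± 0.05 and Fli1 at -1.32 ± 0.07 (adjusted p = 7.1e-09 and 2.7e-08), but Fli1 was not called without that library under 75th percentile scaling (-0.87) or with length and GC trends removed (-0.47). With length and GC trends removed, Erg was at 1.29 (interval 0.33 to 2.26) and Fli1 at -0.34 (interval -0.69 to 0.01).

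Fli1 was thus the more abundant of the pair in control replicates 1 and 3, and Erg in every IGF1 library. The ratio of Erg to Fli1 was 0.269, 1.09 and 0.243 in control libraries and 1.58, 1.5 and 1.84 in IGF1 libraries. Control replicate 2 thus had an intermediate ratio, above the other controls and below every IGF1 library. The summed level of both genes was 53.3, 42.1 and 52.8 FPKM in control libraries and 43.3, 43.9 and 41.9 FPKM in IGF1 libraries, and these ranges overlapped.

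**Figure D2:**
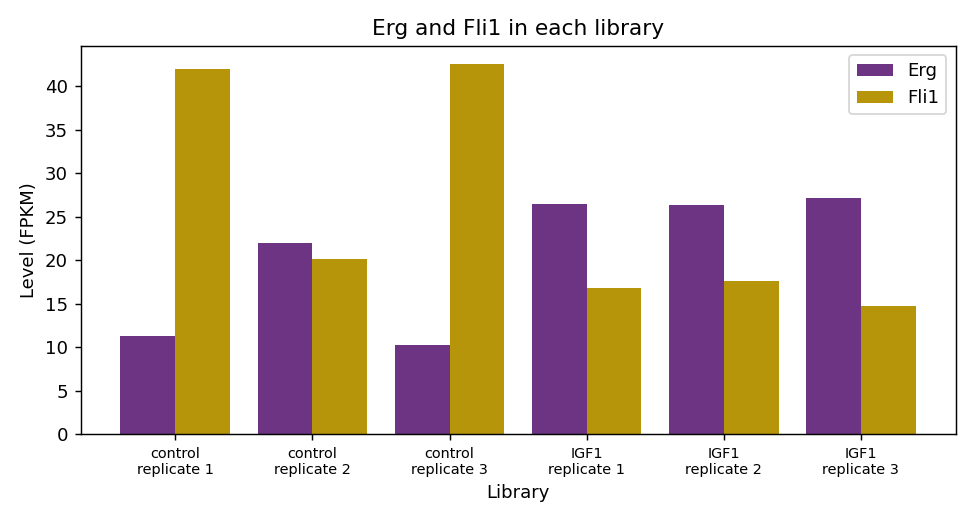
Level of Erg and Fli1 in FPKM (vertical axis, from 0) in each of the 6 libraries, with 1 bar per gene and library and no error bar. Fli1 is the taller bar in control replicates 1 and 3 (42.0 and 42.5 FPKM), and Erg in control replicate 2 and in the IGF1 replicates (22 and 26.4 to 27.1 FPKM).

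Etv6 (chr6:134035700-134270158, plus strand), an ETS repressor that adult HSCs need to persist, was at 49.9, 34.1 and 49.9 FPKM in control libraries and at 38.2, 39.0 and 38.9 FPKM in IGF1 libraries. Control replicate 2 lay below the IGF1 libraries and the other controls above them. The difference was -0.18 ± 0.17 (interval -0.59 to 0.23, adjusted p = 0.39), or -0.36 ± 0.04 without control replicate 2, and it turned to 0.16 when libraries were scaled to their 75th percentile.

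Gata2 (chr6:88193891-88207032, plus strand) encodes the GATA factor that sets the number and quiescence of HSCs. It was at 39.5, 23.5 and 41.2 FPKM in control libraries and at 30.8, 29.0 and 30.2 FPKM in IGF1 libraries. The IGF1 libraries lay inside the range of the controls, with control replicate 2 lowest of all. The difference of -0.17 ± 0.22 (interval -0.71 to 0.38) did not pass (adjusted p = 0.544), was -0.42 ± 0.04 without control replicate 2 (adjusted p = 7.8e-06), and turned to 0.18 under 75th percentile scaling.

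Lmo2 (chr2:103957986-103981878, plus strand), the bridge between the helix-loop-helix pair and the GATA factor, was at 314.6, 266.3 and 312.5 FPKM in control libraries and at 245.5, 246.3 and 253.4 FPKM in IGF1 libraries. All IGF1 libraries lay below all controls, with control replicate 2 the nearest to them. The difference of -0.26 ± 0.12 (interval -0.56 to 0.05) did not pass (adjusted p = 0.133), was -0.33 ± 0.03 without control replicate 2 (adjusted p = 9.0e-07), and turned to 0.09 under 75th percentile scaling.

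Mecom (chr3:29951296-30548008, minus strand), needed for long-term self-renewal, had the fewest reads of the members in control replicate 2 and the IGF1 libraries. In control replicates 1 and 3 Tal1 had fewer (about 328 and 363). Mecom was at 4.10, 0.672 and 3.49 FPKM in control libraries, from about 594, 70 and 508 reads. In IGF1 libraries it was at 1.12, 1.16 and 1.12 FPKM, from about 119 to 130 reads. Control replicate 2 was the lowest library, below all IGF1 libraries, and the other controls were the highest. The difference of -0.66 ± 0.42 (interval -1.70 to 0.38) did not pass (adjusted p = 0.227), whereas without control replicate 2 it was called at -1.17 ± 0.08 (adjusted p = 3.9e-07). That call was lost under 75th percentile scaling (-0.85) and with length and GC trends removed (-0.75).

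Hlf (chr11:90336536-90390895, minus strand), which marks primitive HSCs and protects their quiescence, had the smallest difference of the 10 genes without further scaling or trend removal. Its level was 11.2, 8.88 and 11.8 FPKM in control libraries and 9.75, 9.94 and 9.91 FPKM in IGF1 libraries. The IGF1 libraries again lay inside the range of the controls, with control replicate 2 lowest. The difference was -0.09 ± 0.14 (interval -0.42 to 0.24, adjusted p = 0.587), and -0.20 ± 0.05 without control replicate 2 (adjusted p = 0.00487). With length and GC trends removed it was 0.25, and Etv6 (-0.03), Lyl1 (0.07) and Gata2 (-0.13) lay nearer to 0. Under 75th percentile scaling it was 0.23, and Lmo2 (0.09), Etv6 (0.16) and Gata2 (0.18) lay nearer to 0.

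**Figure D3:**
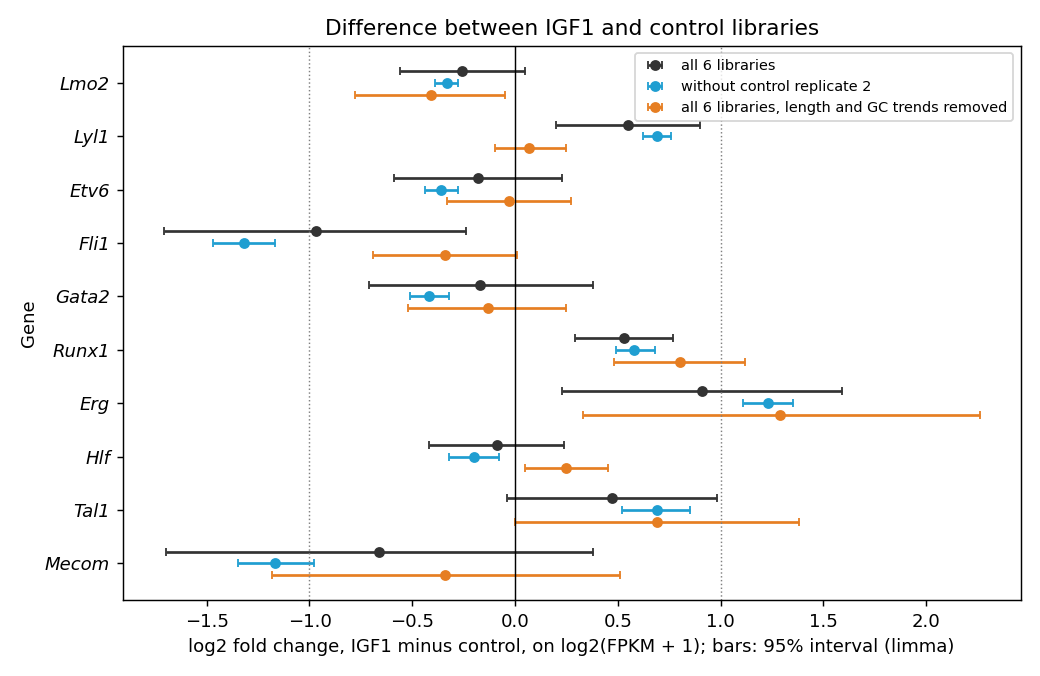
Log2 fold change of IGF1 minus control on log2(FPKM + 1) for each gene (horizontal axis), with 95% intervals from limma, for all 6 libraries, without control replicate 2, and for all 6 libraries with length and GC trends removed. Dotted lines mark the fold threshold of 2 in either direction. Erg and Fli1 lie farthest out with all libraries (0.91 and -0.97), and the value of Lyl1 moves from 0.55 to 0.07 with length and GC trends removed.

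Across the 10 genes, 0 were called with all 6 libraries in limma, against 6.61% of all genes tested (207 higher and 484 lower). On the adjusted p alone 2 passed, Runx1 and Lyl1, against 20.4% of all genes, and 4 had an unadjusted p under 0.05, with Erg and Fli1 added, against 53.4%. On the recovered reads, limma's voom called 0 members as well, against 10.1% of all genes, with 5 at an unadjusted p under 0.05, against 53.6%. The groups did not overlap for 5 members, Runx1, Lyl1, Lmo2, Erg and Fli1, against 59.4% of all genes, and none of the shares of members in this paragraph was above that of all genes. The exact 2-sided permutation test gave p = 0.1 for each of these 5, the smallest value that 3 libraries against 3 allow, 0.2 for Tal1 and 0.4 for the other 4.

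Without control replicate 2, 3 members were called (Erg higher, Fli1 and Mecom lower), against 32.9% of all genes, and 10 of 10 passed the adjusted p alone, against 88.5%. With any other library left out instead, 0 members passed the adjusted p, with 2 to 4 members at an unadjusted p under 0.05, against 28.5% to 30.7% of all genes. Of the 10 differences, 4 were above 0 (Runx1, Tal1, Lyl1 and Erg) and 6 below, with a median of -0.13 against -0.18 for all genes tested. Scaling to the 75th percentile moved the median of all genes to 0.12 and that of the members to 0.20, Gata2, Lmo2, Hlf and Etv6 then being above 0, and higher genes then made 64.9% of those called, against 30% in the main comparison. Against the median of all genes, 6 members were the higher in the main comparison.

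Control replicate 2 lay nearer to the IGF1 mean than to the mean of the other controls in 9 of the 10 members and in 77.3% of all genes tested. Expressed as the share of the way from the other controls to the IGF1 mean on the log2 scale, it stood at 26% for Runx1, 59% for Lyl1, 70% for Lmo2, 78% for Erg, 79% for Fli1 and 95% for Tal1. For Mecom, Etv6, Hlf and Gata2 it went past the IGF1 mean, at 130%, 150%, 168% and 181%. Runx1 was thus the member in which this library held most to its own group.

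**Figure D4:**
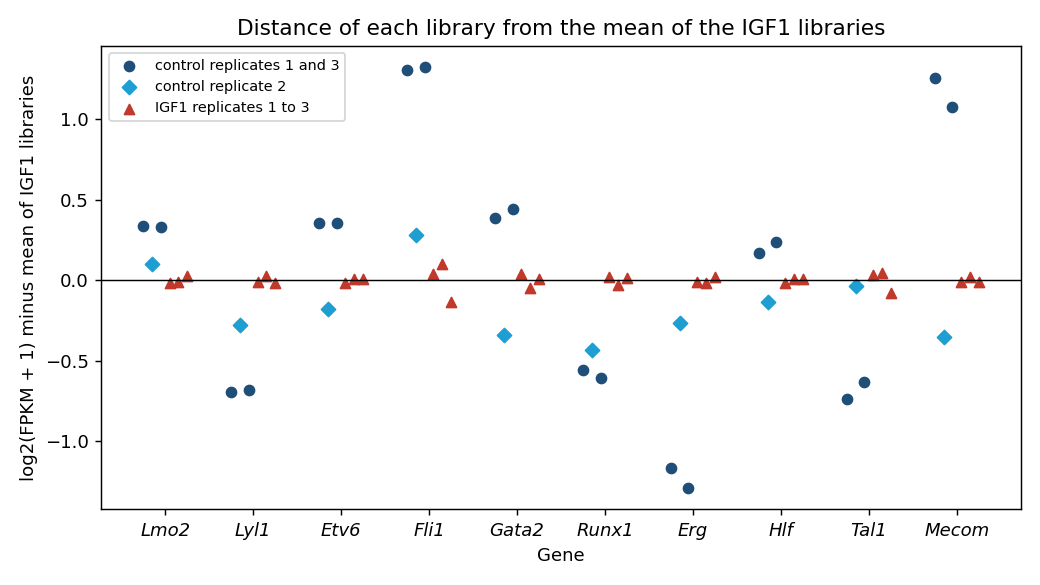
Distance of each library from the mean of the IGF1 libraries, as a difference of log2(FPKM + 1), for each gene. Control replicates 1 and 3 (circles) lie together and away from 0, the IGF1 replicates (triangles) lie near 0, and control replicate 2 (diamonds) lies nearer to the circles than to 0 for Runx1 alone.

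The proteins that the members bind with were then examined, as a list of 23 partners and cofactors, all tested. Of these, 1 was called higher and 1 lower, 4 passed the adjusted p alone, and the median difference was 0.14. With control replicate 2 left out, 4 were called in each direction. Among all genes tested, 6.61% were called, 20.4% passed the adjusted p alone and 32.9% were called without control replicate 2. These shares are the ones to set beside the counts of this list and each later list. Cbfb, the partner that RUNX proteins need to hold DNA, was at 110.4, 38.5 and 107.0 FPKM in control libraries and at 24.7, 27.9 and 23.7 FPKM in IGF1 libraries. Control replicate 2 lay near the IGF1 libraries without overlapping them. Cbfb fell by 1.56 ± 0.41 on the log2 scale (adjusted p = 0.0483), and its difference was -2.06 without control replicate 2. With length and GC trends removed it was at -0.88 and not called. Zfpm1 (FOG1), the cofactor of GATA1 in the megakaryocyte and erythroid lineages, was at 2.15, 4.98 and 1.97 FPKM in control libraries and at 7.88 to 8.08 FPKM in IGF1 libraries, and rose by 1.23 ± 0.28 (adjusted p = 0.0429), by 1.55 without control replicate 2, and was not called with length and GC trends removed (0.97). Ldb1, which ties LMO2 complexes together, was at 41.2 to 48.4 FPKM in control libraries and 59.4 to 62.4 FPKM in IGF1 libraries, and rose by 0.45 ± 0.10 (adjusted p = 0.0417), or 0.51 without control replicate 2, under the fold threshold, and missed the adjusted p with length and GC trends removed (0.0515). The E protein genes Tcf3 and Tcf12, whose products pair with TAL1 and LYL1, had differences of -0.55 ± 0.20 and -0.39 ± 0.15. These did not pass (adjusted p = 0.0764 and 0.0815), and were -0.77 and -0.52 without control replicate 2 (adjusted p = 1.6e-07 and 1.6e-05). Tcf4, another E protein gene of the list, went the other way at 0.14 ± 0.12 (adjusted p = 0.335), or 0.20 without control replicate 2. With length and GC trends removed Tcf3 was at -0.63, Tcf12 at -0.08 and Tcf4 at 0.35.

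Of 23 other genes of the members' families, 21 were tested, with a median of -0.20. Called were 2 higher and 1 lower, against 6.61% of all genes, and 9 passed the adjusted p alone, against 20.4%. Tal2 was listed at 0 in every library. Lmo1, a relative of Lmo2, was at 4.28, 8.60 and 4.95 FPKM in control libraries and at 14.3 to 16.1 FPKM in IGF1 libraries, and rose by 1.27 ± 0.24 (adjusted p = 0.0363). The ETS repressor gene Erf rose by 1.10 ± 0.24 (adjusted p = 0.0412), from 0.584 to 1.88 FPKM in control libraries to 3.08 to 3.41 FPKM in IGF1 libraries. Ets2, another ETS gene, fell by 1.09 ± 0.25 (adjusted p = 0.0427), from 4.07 to 7.62 FPKM to 1.77 to 2.70 FPKM. None of these 3 overlapped between groups, which also held for 59.4% of all genes tested. Leaving out control replicate 2, Lmo1 was at 1.53, Erf at 1.37 and Ets2 at -1.33, whereas with length and GC trends removed none of the 3 was called (0.89, 1.08 and -0.82). Without control replicate 2, 5 genes of the list were called higher and 3 lower, against 32.9% of all genes called in either direction.

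The other RUNX genes were above the controls too. Runx2, best known from bone, was at 8.89, 14.9 and 9.01 FPKM in control libraries and at 21.9 to 22.7 FPKM in IGF1 libraries, and rose by 1 ± 0.21 (adjusted p = 0.0386), which did not exceed the fold threshold, whereas Runx2 was called with length and GC trends removed (1.05, adjusted p = 0.0401). Runx3, best known from lymphocytes, was at 9.99, 24.2 and 10 FPKM and at 25.1 to 27.0 FPKM, a difference of 0.89 ± 0.34 that did not pass (adjusted p = 0.0823). When control replicate 2 was left out both were called higher, Runx2 at 1.22 (adjusted p = 4.4e-09) and Runx3 at 1.28 (adjusted p = 4.6e-09). Control replicate 2 lay close to the IGF1 libraries for Runx3 and was intermediate for Runx2. Gata1, which takes over from Gata2 as erythroid and megakaryocyte cells mature, had a difference of 0.21 ± 0.11 (adjusted p = 0.151) around 7.92 to 10.1 FPKM, and Prdm16, the closest relative of Mecom, one of -0.30 ± 0.11 (adjusted p = 0.08) around 0.995 to 1.71 FPKM, at 0.24 and -0.39 without control replicate 2.

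Among 19 other regulators of HSCs, 17 were tested, 1 was called in each direction and 3 passed the adjusted p alone, with a median of -0.30. Nfix, which supports HSC survival, rose by 1.14 ± 0.30 (adjusted p = 0.0482), from 3.95, 8.34 and 3.30 FPKM in control libraries to 11.7 to 12 FPKM. Mycn, a MYC family gene active in stem cells, fell by 1.86 ± 0.45 on the log2 scale (adjusted p = 0.0443), from 33.7, 10.3 and 32.9 FPKM to 5.2 to 5.85 FPKM. With length and GC trends removed Mycn stayed called (-1.71) and Nfix did not (0.98). Leaving out control replicate 2 gave 3 called higher and 4 lower, with Nfix at 1.48 and Mycn at -2.39.

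Among 22 lineage factors of blood cells, 19 were tested, with a median of 0.21. On the adjusted p alone 5 passed, and 2 were called higher and 0 lower. The called genes were Zfpm1, given above, and Cebpb, a factor of emergency granulocyte formation. Cebpb was at 54.6, 58.2 and 47.7 FPKM in control libraries and at 143.8, 142.6 and 134.2 FPKM in IGF1 libraries, and control replicate 2 lay with the other controls. Cebpb rose by 1.38 ± 0.11 (adjusted p = 0.0286), by 1.44 without control replicate 2, and stood at 0.60, not called, with length and GC trends removed. Without control replicate 2, 4 of the list were called higher and 0 lower.

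Among 24 genes known to be bound by members in blood or endothelial cells, 20 were tested, 1 was called higher (Zfpm1) and 0 lower, and 3 passed the adjusted p alone, with a median of -0.06. Leaving out control replicate 2 gave 5 called higher and 6 lower. These lists share genes, Zfpm1 being in 3 of them, and their differences are subject to the same spread between control libraries as the members.

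**Figure D5:**
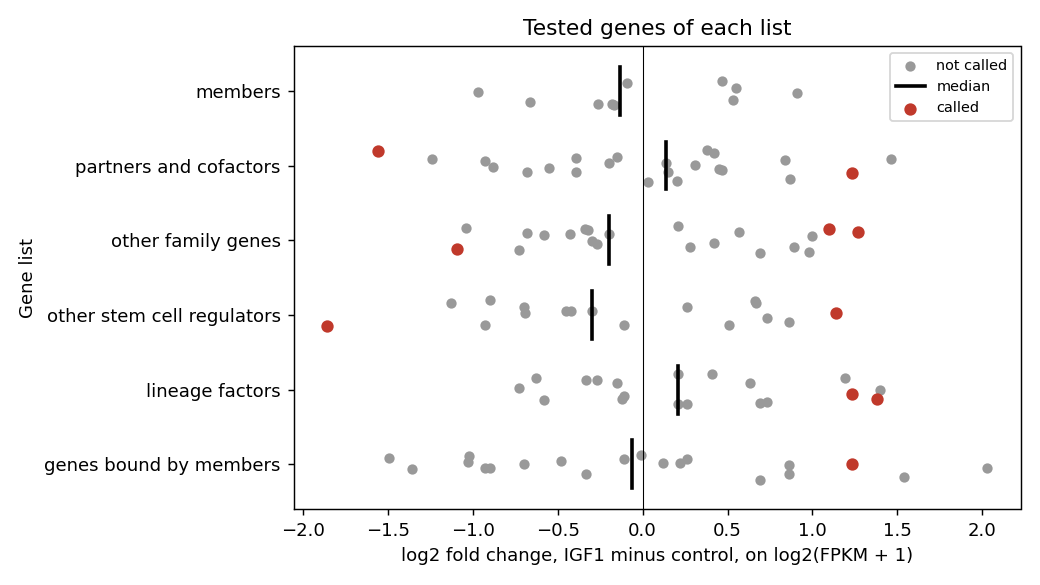
Log2 fold change of IGF1 minus control on log2(FPKM + 1) with all 6 libraries (horizontal axis) for each tested gene of each list, the vertical spread of points within a list having no meaning. Large red points are called genes, grey points are genes not called and black bars are medians. The medians lie between -0.30 and 0.21, and no member is called.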

How the data were processed

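The material was RNA-seq of sorted mouse HSCs, with 3 vehicle-treated control and 3 IGF1 libraries. For each library the authors deposited a single value per gene symbol, taken here as FPKM because no source names the unit. Values were not whole. They summed to 466619 and 466135 in control replicates 1 and 3, 635111 in control replicate 2 and 677826 to 680285 in the IGF1 libraries. Within a gene the values rose in steps that gave whole reads for 14816 of 14838 genes with at least 2 values above 0. That was 99.9% at a tolerance of 0.03 reads, and 1.2% after the values were jittered. These steps gave depths of about 16000000, 11500000 and 16100000 reads in controls 1 to 3 and 12400000, 11300000 and 12900000 reads in IGF1 libraries 1 to 3, the scale being approximate. The submitters' processing notes name fastp, HISAT2, StringTie and GRCm38 (mm10), whereas the methods name RSEM as the counter. The libraries were made with a stranded kit.

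The test was limma (version 3.58.1, under R 4.3.3) with its variance trend, run on log2(FPKM + 1) of the genes that reached 1 FPKM in 3 or more libraries. Its p-values were adjusted over all genes tested, and the script was first tested on simulated data. A count test was not the main test, since the deposited values are not counts. The members, lists and alternatives were chosen with earlier results of these data known. All members were named, with up to 3 called genes of each list by smallest adjusted p, and Ldb1, Tcf3, Tcf12, Cbfb, Gata1, Runx2, Runx3 and Prdm16 in any case. Tcf4 was named after its values were seen. The marker genes named in the check of the cell type were chosen after their values were seen. Coordinates, transcript length and GC content came from the GENCODE annotation of GRCm38, matched for 96.7% of the genes tested, and promoter windows from RefSeq (GRCm38.p6). Alternatives were 75th percentile scaling, quantile normalization, removal of length and GC trends, pseudocounts of 0.1 and 5, a fit without the variance trend, no filter or one at 5 FPKM, library weights, a replicate block, voom on recovered reads and leaving out each library.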

Additional observations from a re-analysis of the deposited data

How the results depend on the processing

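Of 189 values of the 10 members over 19 alternatives, 164 kept their direction and side of the threshold, 12 passed the call in the same direction and 13 turned. Under 75th percentile scaling Gata2 was at 0.18, Lmo2 at 0.09, Hlf at 0.23 and Etv6 at 0.16, and with control replicate 2 also left out at 0.04, 0.13, 0.23 and 0.10. Under quantile normalization Gata2 was at 0.08, Hlf at 0.23 and Etv6 at 0.03. With length and GC trends removed Hlf was at 0.25, and at 0.24 with control replicate 2 also left out. The alternatives that join the omission of control replicate 2 to another choice were chosen after seeing the data.

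The members called numbered 3 with library weights and 0 to 3 when 1 library was left out, the 3 being without control replicate 2. Without that library they numbered 4 under 75th percentile scaling (Runx1, Tal1, Lyl1 and Erg) and 2 with length and GC trends removed (Tal1 and Erg), so that Erg alone was called in all 3 of these settings and Fli1 and Mecom were lost in both of the added ones. The median of the members was 0.20 under 75th percentile scaling, 0.18 with control replicate 2 also left out, 0.02 with length and GC trends removed, -0.27 with library weights and 0.16 under quantile normalization, and ranged from -0.27 to -0.02 when 1 library was left out.

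Among all genes tested, 691 were called, against 313 with length and GC trends removed, 3435 with library weights, 374 without a filter, 223 with a pseudocount of 5, 1052 by voom, and 0 to 3438 when 1 library was left out, the 3438 being without control replicate 2. Without that library 3141 were called under 75th percentile scaling and 2102 with length and GC trends removed. Of 84 tested genes in the 5 lists, 8 were called, against 3, 33, 3 and 2 under the first 4 of those settings, 0 to 33 when 1 library was left out, and 37 and 27 in the last pair. The cause was not tested.

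Deviations of same-numbered libraries from their group means had correlations of -0.06, -0.05 and 0.01. Control replicate 2 stood far from its group, so these values cannot tell whether the replicate numbers pair the libraries. With a replicate block 0 genes were called in limma (1780 past the fold at an unadjusted p under 0.05), 0 members and 0 genes of the lists. Without any 1 library other than control replicate 2, 0 genes were called, with 685 to 1181 past the fold at an unadjusted p under 0.05. Mecom could not be tested at a minimum of 5 FPKM. The smallest exact p of 0.1, 1 library that decides most calls, and a depth known only approximately limit these results.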
